A study of Mus musculus with 4 samples.

Results

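The regions described are 1 kb stretches of the mouse genome that were almost unmethylated in R1 embryonic stem cells (ESCs) and partly methylated in the neurons derived from them. The genome (build GRCm38, also called mm10) was divided into consecutive tiles of 1000 bp, and a tile was measured when at least 5 CpG sites in it were listed in all 4 libraries. The level of a tile was the unweighted mean of the methylation percentages of those sites. Tiles at or below 10% in R1 ESCs and from 25% to 75% in R1 neurons were kept, which gave 4378 of 80233 measured tiles, or 5.46%. They held 61310 of the 1545651 sites listed in all 4 libraries. The tiles were thus chosen by their levels in both R1 libraries, so the levels in R1 ESCs and R1 neurons, and the rise from the former to the latter, describe the choice and are not findings. The 2 Tet/Tet libraries took no part in that choice beyond having to list the same sites.

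The study measured CpG methylation by reduced representation bisulfite sequencing (RRBS), in which the enzyme MspI cuts DNA at CCGG and bisulfite turns unmethylated cytosines into bases read as thymine. There was 1 library of ESCs and 1 of neurons from each of the lines R1 and Tet/Tet. R1 ESCs are wild-type mouse cells. Tet/Tet is 1 transgenic line made from R1 by placing tet-off constructs at Dnmt1, and it makes more of the DNA methyltransferase DNMT1 both as ESCs and as neurons. Tet/Tet cells were kept in puromycin at 1 µg/ml and neomycin at 150 µg/ml, and R1 cells were not. For neurons, both lines were held for 2 days as embryoid bodies without LIF and then for 10 to 15 days in Ndiff227. The labels give phenol and chloroform for the DNA of ESCs and a column kit for that of neurons, while the study's methods give phenol and chloroform for both. The ESC libraries and the neuron libraries were sequenced in separate projects, so cell type and project cannot be told apart, nor can extraction if the labels hold. The tables give percentages and no read counts. The depth of each value is therefore unknown, and with 1 library per condition no spread between cultures could be measured and no test between conditions was made. RRBS reads DNA, so the identity of the neurons could not be checked against marker genes.

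Most CpGs of a mammalian genome are methylated, and the main exceptions are CpG islands, which are short CpG-rich stretches found at many gene starts. The flanks of an island, called shores, pass from the unmethylated island to the methylated surroundings. DNMT3A and DNMT3B place new methyl groups on DNA, and DNMT1 copies existing ones onto the new strand after replication. A region read as partly methylated can hold sites that are each methylated in only some DNA molecules, or methylated sites lying beside unmethylated ones, and a tile mean does not separate the former from the latter.

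Sequences of both kinds are printed because the distinction runs through what follows. In the first kind, called even tiles here, nearly every listed site of the tile was itself between 25% and 75% in R1 neurons. The listed sites of the even tiles named here lay mostly or wholly in the same 500 bp, so the rest of the tile was little read. Hand1, which encodes a transcription factor of heart and extraembryonic development, and Nsg2, which encodes a vesicle protein of neurons, gave such tiles at their start sites. The window shown at Hand1 was chr11:57832819-57832968, just upstream of the gene, which lies on the minus strand. It is printed from the plus strand of mm10, with the CpGs listed in all 4 libraries in capitals.
Hand1: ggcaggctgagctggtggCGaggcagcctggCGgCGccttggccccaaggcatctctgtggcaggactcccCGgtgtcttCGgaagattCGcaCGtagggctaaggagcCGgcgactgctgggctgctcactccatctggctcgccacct
At the 8 listed sites of the Hand1 window, levels in R1 neurons lay between 42.7% and 63.9%. The same sites were between 10.3% and 14.9% in R1 ESCs. In the Tet/Tet line they were between 4.58% and 12.3% as ESCs and between 7.41% and 16.4% as neurons. Every site of the window stood higher in R1 neurons than any of them did in the other libraries. The whole Nsg2 tile, with 15 sites from 33.3% to 70.6% in R1 neurons, read 4.56% for R1 ESCs, 2.76% for Tet/Tet ESCs, 48.7% for R1 neurons and 6.09% for Tet/Tet neurons.

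In the second kind, called split tiles, sites near 0 and sites near 100% lay in different stretches of the same tile. The windows shown are 150 bp each, taken from the lower and the upper 500 bp of the tile in genome order. Usf2 encodes a basic helix-loop-helix transcription factor, and its windows were chr7:30955254-30955403 and chr7:30955801-30955950, inside the minus-strand gene near its start. Wdr34 encodes a chain of the dynein motor of cilia, and its windows were chr2:30049089-30049238 and chr2:30049673-30049822, upstream of the minus-strand gene. Jdp2 encodes a partner of the transcription factor Jun, and its windows were chr12:85598060-85598209 and chr12:85598843-85598992, upstream of the plus-strand gene. Strand and capitals are as before.
Usf2, lower window: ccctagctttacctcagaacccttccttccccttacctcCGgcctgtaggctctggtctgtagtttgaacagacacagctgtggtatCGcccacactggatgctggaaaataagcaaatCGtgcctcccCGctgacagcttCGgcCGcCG
Usf2, upper window: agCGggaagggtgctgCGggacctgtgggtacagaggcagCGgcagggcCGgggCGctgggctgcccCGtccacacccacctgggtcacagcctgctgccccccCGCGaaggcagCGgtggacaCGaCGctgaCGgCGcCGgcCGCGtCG
Wdr34, lower window: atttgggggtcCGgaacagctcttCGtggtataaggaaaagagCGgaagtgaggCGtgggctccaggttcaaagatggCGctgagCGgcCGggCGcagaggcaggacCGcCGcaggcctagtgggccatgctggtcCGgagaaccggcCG
Wdr34, upper window: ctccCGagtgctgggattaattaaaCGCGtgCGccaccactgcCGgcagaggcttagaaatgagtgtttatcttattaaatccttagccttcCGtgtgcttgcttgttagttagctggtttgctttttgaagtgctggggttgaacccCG
Jdp2, lower window: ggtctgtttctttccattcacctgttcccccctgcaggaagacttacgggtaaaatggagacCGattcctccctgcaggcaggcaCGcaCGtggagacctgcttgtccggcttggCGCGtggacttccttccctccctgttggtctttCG
Jdp2, upper window: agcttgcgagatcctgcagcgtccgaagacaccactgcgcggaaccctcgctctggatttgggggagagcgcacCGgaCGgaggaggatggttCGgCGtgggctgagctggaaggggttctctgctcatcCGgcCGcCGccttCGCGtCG
At Usf2, the 7 sites of the lower window were between 87.2% and 92.9% in R1 neurons and the 17 sites of the upper window between 0% and 16.7%. In Tet/Tet neurons the lower window was between 7.83% and 17% and the upper window between 0% and 8.67%. At Wdr34, the 12 sites of the lower window were between 0% and 10% in R1 neurons and the 7 sites of the upper window between 89% and 100%. The upper window of Wdr34 was read less evenly elsewhere, from 0% to 33.3% in R1 ESCs and, in the Tet/Tet line, from 0% to 50% as ESCs and 0% to 100% as neurons. At Jdp2, all 6 sites of the lower window were listed at 100% in R1 neurons, and the 10 sites of the upper window were between 0.602% and 12.1%. Those 6 sites were at 0% or 100% in R1 ESCs. In the Tet/Tet line they were at 0% as ESCs and at 0% or 25% as neurons, and the number of reads behind such values is unknown.

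**Figure D1:**
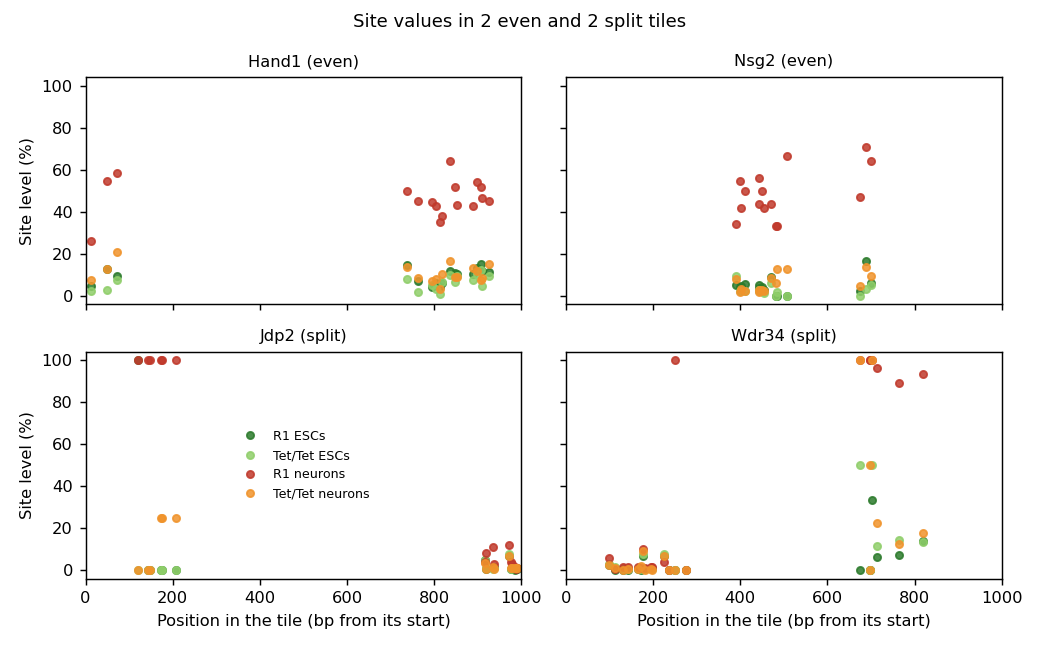
Methylation percentage of each listed CpG site (vertical axis) against its position in the 1 kb tile (horizontal axis, bp) at the Hand1, Nsg2, Jdp2 and Wdr34 start sites, coloured by library. At Hand1 and Nsg2 all R1 neuron points lie between 26% and 70.6%, whereas at Jdp2 and Wdr34 they lie near 0% or near 100%.

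The tiles stood in the R1 libraries where the rule placed them. Their median was 5% in R1 ESCs, with the middle 80% of tiles from 1.96% to 8.66%, and 45.8% in R1 neurons, with the middle 80% from 28.4% to 69.4%. They were not bunched at the centre of the allowed range: 1188 tiles were between 25% and 35% and 773 between 65% and 75%. The tile of most sites just above the lower bound was at the meiosis and germ cell gene Dazl, at 25.1%, and the nearest of most sites below it was at Rapgef4, at 24.9%. At the upper bound, tiles at Lvrn and Slc5a1 both rounded to 75%, and at the R1 ESC ceiling the tile in Adra1d was at 9.95% and that at Ildr1 at 10.0%. Of the 25624 tiles at or below 10% in R1 ESCs, 18204 (71%) stayed under 25% in R1 neurons and 3042 (11.9%) were over 75%, and the partly methylated tiles made up 17.1%. These other classes, called low and high tiles, are given beside the partly methylated tiles below. The classes differ in their number of sites, with medians of 27 in low, 10 in partly methylated and 7 in high tiles, and no test separates what is particular to any of them.

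In Tet/Tet neurons the partly methylated tiles were read at low levels. Their median was 6.00%, the middle 80% of tiles lay from 2.78% to 11.7%, and 3669 of 4378 (83.8%) were at or below 10%. Tet/Tet neurons reached 25% in 23 tiles (0.525%). In Tet/Tet ESCs the median was 4.65%, the middle 80% lay from 1.96% to 10.9%, and 3836 tiles (87.6%) were at or below 10%. The medians of low tiles in the Tet/Tet line were 2.29% as ESCs and 2.37% as neurons, and those of high tiles were 7.24% and 12.6%. The order low, partly methylated, high in R1 neurons was thus also the order of the medians in both Tet/Tet libraries, with Tet/Tet neurons staying far below R1 neurons in the latter classes.

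**Figure D2:**
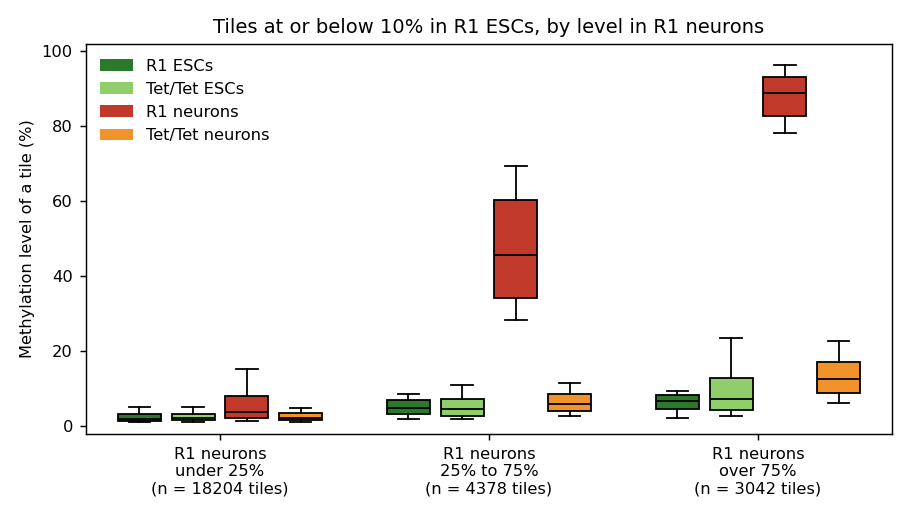
Methylation level of 1 kb tiles (percent) in the 4 libraries, for the 3 classes of tiles at or below 10% in R1 ESCs, with 1 library per condition. Boxes span the middle 50% of tiles with a line at the median, and whiskers span the middle 80%. Partly methylated tiles sit at a median of 45.8% in R1 neurons, which the rule fixes, and at 6.00% in Tet/Tet neurons.

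Tet/Tet ESCs and Tet/Tet neurons differed little at these tiles. The median of neurons minus ESCs was 1.20 percentage points, and the middle 80% of tiles lay from -4.60 to 6.42 points. Tet/Tet neurons were above Tet/Tet ESCs in 2781 of 4378 tiles (63.5%). A rise of at least 10 points was read in 160 tiles (3.65%), beside 2.56% of all measured tiles, and in 716 of 3042 high tiles (23.5%). A fall of at least 10 points was read in 154 tiles (3.52%), beside 54.5% of all measured tiles, most of which started far higher. Tet/Tet ESCs were at least 10 points above R1 ESCs in 198 tiles (4.52%), beside 15.4% of all tiles. This difference contains the R1 ESC levels, which the rule caps at 10% here but not in all tiles, so these shares are not alike. Under the same cap, 93 of 18204 low tiles and 549 of 3042 high tiles showed such a difference. Among tiles over 10% in R1 ESCs, 11502 of 54609 did. Tet/Tet neurons were at least 10 points below R1 neurons in 4370 tiles (99.8%), but that difference contains the R1 neuron levels that chose the tiles, and 79.6% of all measured tiles passed the same mark. Tiles over 10% in R1 ESCs had a median of 92.7% in R1 neurons, where Tet/Tet neurons had 16.8%, so low levels in Tet/Tet neurons were read across the measured genome and were not tested as a property of the partly methylated tiles.

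Within the chosen range, tiles with a higher level in R1 neurons also stood slightly higher in Tet/Tet neurons. From the tiles at 25% to 35% in R1 neurons to those at 65% to 75%, the median in Tet/Tet neurons went from 4.51% through 5.49%, 6.20% and 6.98% to 9.07%. The corresponding medians in Tet/Tet ESCs went from 4.14% to 5.52%. Across the 4378 tiles the levels of the 2 neuron libraries had a Pearson r of 0.393 and a Spearman rho of 0.435, and R1 neurons and Tet/Tet ESCs had an r of 0.165 and a rho of 0.162. Tiles in these correlations share libraries, base composition and the chosen range, so the coefficients are descriptions and carry no p-value.

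In their overlap with CpG islands, the partly methylated tiles lay between the low and the high tiles. To count as a CpG island, a stretch had to exceed 200 bp, hold 50% GC or more and have a ratio of observed to expected CpGs over 0.6. Of the partly methylated tiles, 1650 (37.7%) overlapped an island, beside 85.1% of low tiles, 15.0% of high tiles and 26.8% of all measured tiles. A further 740 (16.9%) lay within 2 kb of an island without touching it, a larger share than the 6.15% of low and 10.9% of high tiles. The remaining 1988 (45.4%) were over 2 kb from any island. In sequence, the partly methylated tiles were again intermediate. The median GC content was 53.1% in partly methylated, 57.2% in low and 50.9% in high tiles, the median number of CpGs in the 1000 bp was 28, 53 and 22, and the median observed over expected ratio was 0.418, 0.666 and 0.349. Repeat-masked bases made up a median of 10.8% of a partly methylated tile, and 40.9% of its CpGs were listed in all libraries.

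By gene annotation, 1465 of the partly methylated tiles (33.5%) overlapped the 1 kb on either side of a protein-coding start site, which is called the promoter here. A further 993 (22.7%) lay in gene bodies and touched an exon, 577 (13.2%) lay in introns only and 1343 (30.7%) were intergenic. Promoters took in 73.6% of low tiles and 8.71% of high tiles. The promoter tiles divided almost evenly into 776 with an island and 689 without. Promoter tiles without an island made up 15.7% of partly methylated tiles, more than the 7.03% of low and 7.10% of high tiles. Intergenic tiles were mostly free of islands, with 1052 of 1343. Levels in R1 neurons, within the chosen range, were lowest at island promoters, with a median of 36.9%, and highest in intergenic tiles without an island, with 52.9%. Tet/Tet neurons ran from 5.24% at island promoters to 6.62% in exonic tiles without an island, a span of little over 1 percentage point. As the R1 neuron level rose from 25% to 35% up to 65% to 75%, the share of tiles overlapping an island went from 50.3% to 23.9% and the share at promoters from 45.4% to 16.8%.

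Around start sites, the partly methylated promoter tiles were centred near the start in a smaller share than low tiles were. The tile centre was within 500 bp of the start in 41.5% of the 1465 promoter tiles, over 500 bp downstream in 38.4% and over 500 bp upstream in 20.1%. The same shares for low tiles were 59.3%, 30.5% and 10.2%. Sites in the 200 bp before the start had a mean of 34.1% in R1 neurons and those in the 200 bp after it 35.5%, whereas sites centred 900 bp upstream had 53.4% and those centred 1100 bp downstream 52.4%. In 359 promoter tiles with at least 5 sites in each 500 bp, the 500 bp farther from the start were higher in 275 (76.6%), with a median difference of 27.2 points. They were higher by at least 25 points in 187 tiles, and the nearer 500 bp were higher by as much in 29.

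The same slope was read at the edges of islands. In 801 partly methylated tiles with at least 3 sites inside an island and at least 3 outside, the median in R1 neurons was 27.7% inside and 62.0% outside. The outside was higher in 730 tiles (91.1%), by at least 25 points in 503. R1 neuron sites 250 bp inside an edge had a mean of 35.0%, sites 50 bp inside 40.9%, sites 50 bp outside 44.1%, sites 250 bp outside 50.3% and sites 750 bp outside 59.8%. The mean of the pooled sites therefore climbed through the edge and over the nearest part of the shore. Each bin pools sites of different tiles, so these means do not show whether single tiles changed gradually or in a step. Outside was also higher than inside in the other libraries, at far lower levels. The medians inside and outside were 3.09% and 7.26% in R1 ESCs, with the outside higher in 652 of the 801 tiles. For Tet/Tet ESCs they were 2.41% and 6.82%, with 666 tiles, and for Tet/Tet neurons 3.96% and 7.74%, with 626. The R1 neuron values here come from the library that chose the tiles, and those of the Tet/Tet libraries do not.

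**Figure D3:**
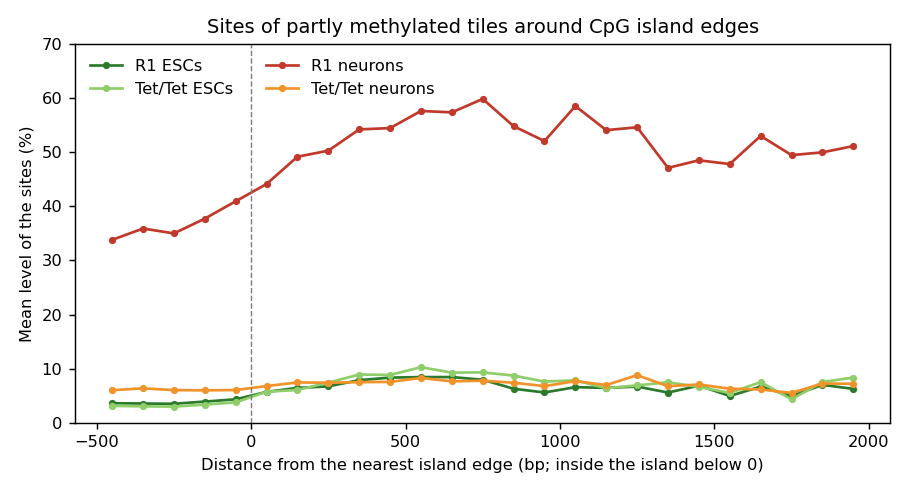
Mean methylation (percent) of the sites of partly methylated tiles in bins of 100 bp by distance from the nearest CpG island edge, with distances inside the island below 0, for the 4 libraries. The R1 neuron line goes from 40.9% just inside the edge to 59.8% at 750 bp outside, and the Tet/Tet neuron line stays between 5.51% and 8.79%.

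Site by site, the listed values of the partly methylated tiles were mixed. Of their 61310 sites, 27.2% were under 25% in R1 neurons, 55.3% were from 25% to 75% and 17.5% were over 75%, with 4.03% listed at exactly 0 and 3.87% at exactly 100. In low tiles 95.5% of sites were under 25%, and in high tiles 84.7% were over 75%. The median SD of the site values in a tile was 23.1 points in R1 neurons, with the middle 80% of tiles from 13.5 to 37.1 points, beside 6.40 points in low and 9.59 points in high tiles. An SD near a bound of the scale is limited by that bound, so these values describe the classes and are not a contrast independent of the rule. A tile had a median of 57.1% of its sites from 25% to 75%. In the other 3 libraries between 95.9% and 97.1% of the same sites were under 25%. Few reads at a site also spread its listed value. With read numbers unknown, the part of this in the shares and SDs was not tested.

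**Figure D4:**
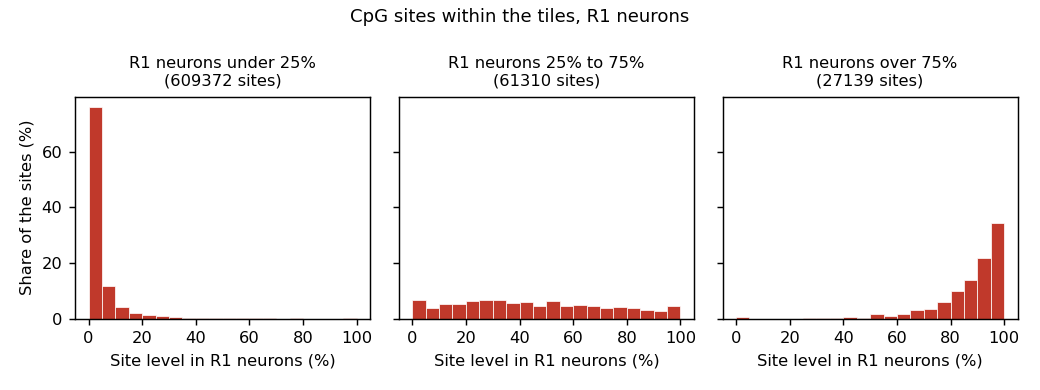
Share of CpG sites (percent, vertical axis) by methylation level in R1 neurons (percent, bins of 5 points) in the 3 classes of tiles at or below 10% in R1 ESCs. The sites of partly methylated tiles spread over the whole scale, with 27.2% under 25% and 17.5% over 75%, whereas the sites of low and high tiles gather at the ends.

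Tiles in which every site was listed as intermediate were few, although few reads at a site can by themselves move its value out of that range. All sites were from 25% to 75% in 181 tiles (4.13%), and at least 80% of the sites were so in 814 (18.6%). At the other end, at most 20% of the sites were intermediate in 466 tiles (10.6%). A site under 25% and a site over 75% stood in the same tile in 2401 (54.8%). The 597 tiles with exactly 5 sites say little on this, and among the 1403 tiles with at least 15 sites 994 (70.8%) held both kinds of site, 205 (14.6%) were at least 80% intermediate and 82 (5.84%) at most 20%. In 851 tiles with at least 5 sites in both the lower and the upper 500 bp, these stretches differed by a median of 26.1 points, by at least 25 points in 442 tiles (51.9%), by at least 50 points in 171 (20.1%) and by under 10 points in 196 (23%).

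Sites lying close together had like levels. In partly methylated tiles, sites 2 to 10 bp apart differed by a median of 13.6 points in R1 neurons, sites 100 to 200 bp apart by 22, sites 400 to 600 bp apart by 39.8 and sites 600 to 1000 bp apart by 49.0. In Tet/Tet neurons the same pairs differed by 3.57 points at 2 to 10 bp and by 8.01 at 600 to 1000 bp. Pairs were available in 3865 tiles at 2 to 10 bp and in 1346 at 600 to 1000 bp, so the distances compare partly different tiles. The order of the sites within a tile was partly shared with the other libraries. Over the 1403 tiles with at least 15 sites, the Spearman rho between R1 and Tet/Tet neurons across the sites of a tile had a median of 0.452 and was above 0 in 1308 (93.2%). The median rho of R1 neurons was 0.413 with R1 ESCs and 0.328 with Tet/Tet ESCs. Sites of a tile share reads and sequence context, so these are descriptions.

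How far apart sites could be compared depended on the RRBS fragments. MspI fragments of 40 to 220 bp, the size range that RRBS favours, held 61.0% of the sites of partly methylated tiles, 72.2% of those of low tiles and 51.3% of those of high tiles. With only those sites, 2593 tiles met the rule and the median SD within a tile was 18.3 points in place of 23.1. The tiles were partly different ones, and 2139 of the 2591 partly methylated tiles that could still be measured met the rule.

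The surroundings of the tiles were mixed as well. Among 2943 measured tiles directly beside a partly methylated one, 1302 (44.2%) were under 25% in R1 neurons, 897 (30.5%) were from 25% to 75% and 744 (25.3%) were over 75%. Where both neighbours were measured, in 397 tiles, a neighbour under 25% on 1 side and a neighbour over 75% on the other were read in 136 (34.3%), both were under 25% in 25, and both were over 75% in 39. The 4378 tiles formed 4040 runs, of which 3724 were single tiles, 297 were runs of 2 and 19 were longer. The longest, of 5 tiles, was at chr2:174283001-174288000 in the imprinted Gnas locus, which encodes a G protein subunit and transcripts made from only 1 parental copy. Its 107 sites had means of 3.82% for R1 ESCs, 2.36% for Tet/Tet ESCs, 43.6% for R1 neurons and 9.14% for Tet/Tet neurons. The next, of 4 tiles, was at chr2:158613001-158617000, from inside Slc32a1 to past its end at 158615748. Slc32a1 encodes the vesicular transporter of GABA and glycine. Over its 79 sites the corresponding means were 7%, 6.84%, 43.7% and 6.29%.

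Among the 16 gene lists examined, the share of genes with a partly methylated tile at the promoter ran from 0 to 59.0%. Of 11561 protein-coding genes with a measured tile there, 1461 (12.6%) had such a tile, and that share is the background for each list. The clustered protocadherins, cell surface proteins of which each neuron uses its own set, stood at 23 of 39 genes (59.0%). Pluripotency genes and Sox factors each had 5 of 16 (31.3%), T-box and Gata factors 4 of 14 (28.6%) and germline genes 6 of 28 (21.4%). Glutamate and GABA receptors (4 of 23, 17.4%), neuronal genes (4 of 24, 16.7%), potassium channels (11 of 68, 16.2%), Wnt, Fgf and Bmp ligands (6 of 39, 15.4%), forkhead factors (5 of 33, 15.2%) and ribosomal protein genes (9 of 60, 15.0%) were near the background. Zinc finger genes of the Zfp series (22 of 238, 9.24%), Hox genes (3 of 37, 8.11%), other homeobox factors (5 of 71, 7.04%) and proneural basic helix-loop-helix factors (1 of 20, 5.00%) were below it, and none of 13 glial genes had such a tile. The lists are short, neighbouring protocadherins share tiles, and no test of the lists was made. Genes whose measured promoter tiles were all low made up 1 of 28 germline genes (3.57%) and 5 of 39 clustered protocadherins (12.8%). Over all protein-coding genes they made up 7755 of 11561 (67.1%). In the other lists the share ran from 42.9% (T-box and Gata factors) to 75.2% (Zfp genes). A promoter tile over 75% was read in 7 germline genes, and in 261 of the 11561.

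**Figure D5:**
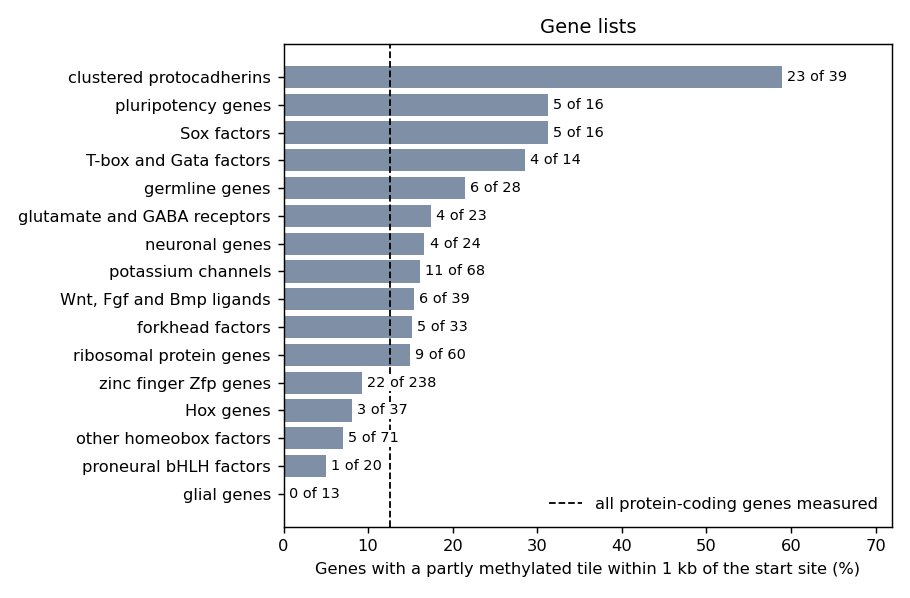
Share of the genes of each list (percent, bars from 0) that had a partly methylated tile within 1 kb of the start site, among genes with a measured tile there, with the counts beside the bars. The dashed line marks all protein-coding genes at 12.6%, and the clustered protocadherins reach 59.0%.

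The protocadherin clusters on chromosome 18 also held the genes with most partly methylated tiles from start to end. Gm42416 (chr18:36952741-37840200) had 35 among 94 measured tiles, Gm37013 had 34 of 91 and Gm37388 had 33 of 90. Pcdhga1 had 22 of 47 and Pcdhga2 had 21 of 46. These 5 gene models overlap along the cluster and largely count the same tiles. Over the 35 tiles of Gm42416 the mean was 5.25% for R1 ESCs, 7.02% for Tet/Tet ESCs, 52.7% for R1 neurons and 8.19% for Tet/Tet neurons. At single start sites, the tile of Pcdhga10 (35 sites) read 3.37%, 4.34%, 44.2% and 8.74% in that order of libraries, and the tile of Pcdhac1 (29 sites) read 9.55%, 11.2%, 37.0% and 6.16%. The neighbouring tiles chr18:37731001-37732000 and chr18:37732001-37733000 of Pcdhgb5 read 53.4% and 61.9% in R1 neurons, beside 14.3% and 21.1% in Tet/Tet neurons. Tet/Tet neurons at Pcdhgb5 were thus well above the 6.00% median of the partly methylated tiles. The tile at 21.1% was named for its high level in Tet/Tet neurons, so its standing there was part of the choice.

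Among genes of the pluripotent state, Lefty2, which encodes an inhibitor of Nodal, had a tile at chr1:180894001-180895000 that read 3.65% for R1 ESCs, 2.81% for Tet/Tet ESCs, 57.5% for R1 neurons and 7.30% for Tet/Tet neurons. Gdf3, which encodes a TGF-beta family ligand, read 2.09%, 1.77%, 70.7% and 4.86% over 14 sites, and all of these sites were at 50.0% or above in R1 neurons. Prdm14, a repressor that guards the pluripotent and germ cell states, read 4.04%, 1.79%, 29.1% and 3.84% over 27 sites. The order of the libraries is the same below. In each of these 3 genes Tet/Tet neurons stayed within 5 points of Tet/Tet ESCs.

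Tiles at germline genes lay on several chromosomes. The tile chr17:50293001-50294000 at the start of Dazl, an RNA-binding protein of germ cells, read 8.58%, 17.7%, 74.3% and 12.5% over 44 sites, all inside an island. Of these sites, 65.9% were over 75% in R1 neurons. The next tile into the gene, the one at the lower bound of the rule, read 1.64%, 1.45%, 25.1% and 4% over 35 sites. The level of R1 neurons was thus far higher at the start of Dazl than inside it. Taf7l, a germ cell form of a general transcription factor on the X chromosome, read 3.04%, 2.33%, 58.1% and 5.36% over 51 sites. Mei1, which is needed for meiotic recombination, read 1.89%, 1.78%, 35.8% and 3.37% over 28 sites. Stk31, a kinase gene active in germ cells that was named for its Tet/Tet neuron level, read 2.50%, 3.93%, 66.3% and 17.9% over 17 sites. All 5 tiles were higher in Tet/Tet neurons than in R1 ESCs, but low levels in R1 ESCs were part of the choice of tiles. Beside Tet/Tet ESCs, Tet/Tet neurons were lower at the start of Dazl, with 12.5% against 17.7%. That tile was also named for its high level in Tet/Tet ESCs. The inner Dazl tile, Taf7l, Mei1 and Stk31 were higher in Tet/Tet neurons than in Tet/Tet ESCs. A common change at germline genes was not tested.

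Tiles at lineage factors lay both inside and outside islands. Sox30, a testis factor, had 103 sites at chr11:45980001-45981000 that read 2.98%, 1.95%, 32.2% and 4.58%. Sox18 and Sox7, factors of blood vessel development, read 3.94%, 2.84%, 30.6% and 4.59%, and 2.69%, 1.91%, 61.0% and 6.12%. Tbx4 and Tbx5, factors of limb development, read 7.95%, 6.38%, 31.9% and 9.56%, and 9.12%, 5.16%, 43.0% and 3.97%. Gata3, a factor of T cells and several organs, read 8.47%, 8.62%, 32.8% and 2.46% over 11 sites, with 6.35% in the lower and 79.2% in the upper 500 bp, so its mean came from a split. The forkhead factors read 40% (Foxa3), 73.5% (Foxj1) and 37.0% (Foxp3) in R1 neurons, beside 7.60%, 9.28% and 6.08% in Tet/Tet neurons. Hoxd12 was read evenly, with 90.7% of its 43 sites between 25% and 75% in R1 neurons, and its tile read 8.88%, 7.17%, 52.6% and 4.15%. Hoxb1 read 3.42%, 2.27%, 34.3% and 4.65%, and the tile upstream of Hoxd9, with 5 sites, read 3.32%, 12.2%, 33.8% and 9.45%. The eye homeobox factor Vsx1 read 29.2% in R1 neurons, beside 3.50% in Tet/Tet neurons. Ascl5 was the only proneural gene with such a tile and read 3.37%, 0.946%, 35.1% and 3.84%. Among ligands, Bmp8b read 35.5%, Bmp2 28.2% and Fgf8 27.2% in R1 neurons, beside 7.21%, 4.48% and 6.22% in Tet/Tet neurons.

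Tiles at genes of neurons were among the members too, and 13 of the 24 neuronal genes measured at their starts (54.2%) had low tiles only, beside 67.1% over all protein-coding genes. Slc32a1 had a tile across its start, chr2:158610001-158611000, apart from the run at its end, and it read 9.26%, 8.73%, 36.4% and 6.29%. The lower and upper 500 bp of that tile read 58.1% and 12.6% in R1 neurons. Slc17a6, which encodes a vesicular glutamate transporter, read 5.37%, 5.54%, 31.9% and 1.79% over 20 sites. Snap25, which encodes a SNARE protein of synaptic vesicle fusion, read 8.45%, 20.4%, 63.4% and 6.61% over 16 sites about 1 kb upstream of its start, and it was the highest promoter tile of at least 15 sites in Tet/Tet ESCs. The glutamate receptor genes Gria2 and Grid1 read 54.2% and 45.4% in R1 neurons, beside 3.76% and 7.41% in Tet/Tet neurons. Grin1 read 37.4% in R1 neurons from 8 sites that ran from 0% to 100%, so little can be said of it. The potassium channel genes Kcna6, Kcnk4 and Kcnh3 read 37.1%, 38.9% and 32.9% in R1 neurons, beside 5.08%, 3.69% and 3.77% in Tet/Tet neurons. Nrsn2, a neuronal membrane protein gene, gave an even tile like Nsg2 and read 4.89%, 3.64%, 51.7% and 7.61%.

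The even tiles at start sites were named for their share of sites from 25% to 75% in R1 neurons, which also limits their spread. Besides Hand1, Nsg2 and Nrsn2, the 8 most even were at Rnls, Cwh43, Eif3j2, Prom2 and Fbln2, with means in R1 neurons from 38.3% (Cwh43) to 51.7% (Nrsn2). At Rnls, which encodes renalase, all 19 sites were between 25% and 66.7%, and the tile read 1.70%, 2.50%, 42.8% and 3.42%. At Prom2, a membrane protein related to prominin, the tile read 6.16%, 4.24%, 44.4% and 6.62% over 20 sites. At Fbln2, an extracellular matrix protein gene, 95% of 20 sites were between 25% and 75% and the tile read 4.94%, 5.10%, 50.5% and 6.35%. The SD across the sites of these 8 tiles lay from 9.05 points at Hand1 to 14.9 at Fbln2. Islands were not shared by all, since the tiles of Hand1, Nsg2 and Nrsn2 had no listed site in an island. None of the 8 had at least 5 sites in both its lower and its upper 500 bp, which split tiles had to have. At Rnls, Nrsn2, Eif3j2 and Fbln2 every listed site lay in the same 500 bp. Even and split tiles therefore differed also in how much of the tile was read.

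The 8 split tiles with the largest difference between their lower and upper 500 bp were at Jdp2, Rpl21, Clcn4, Usf2, Csnk1g3, Wdr34, Lrfn4 and Selenon. At Rpl21, a ribosomal protein gene, the 7 sites of the 500 bp farther upstream had a mean of 91.2% in R1 neurons and the 14 sites nearer the start 1.11%. At Clcn4, which encodes a chloride and proton exchanger, the values were 5.13% over 13 sites and 93.9% over 6, and at Usf2 they were 91.1% over 8 and 2.61% over 22. At Wdr34 they were 9.38% over 14 and 97% over 7, and at Selenon, a selenoprotein gene, 85.1% over 8 and 3.12% over 20. Each of the 8 but Clcn4, whose 19 sites were all in an island, had sites both inside and outside an island. The means of these 8 tiles in R1 neurons lay from 26.2% (Usf2) to 40.6% (Jdp2) although at most 12.5% of the sites of any of them were between 25% and 75%. In Tet/Tet neurons they read from 0.557% (Clcn4) to 15.6% (Wdr34).

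Few promoter tiles stood out in Tet/Tet neurons. Among promoter tiles of at least 15 sites, the 5 highest were at Pcdhgb5 (21.1%), Slc12a8 (21%), Pcdhga8 (20%), Pmaip1 (18.4%) and Stk31 (17.9%). Pmaip1, which encodes a promoter of apoptosis, read 2.52%, 3.33%, 59.7% and 18.4% over 52 sites, 51 of them in an island. Slc12a8 read 8.83%, 18.1%, 71.3% and 21%, and was also among the 5 highest in Tet/Tet ESCs, with Snap25 (20.4%), Dazl (17.7%), Lrrc4 (16.6%) and Sat2 (16.5%). None of these tiles reached 25% in either Tet/Tet library.

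Far from genes, 397 partly methylated tiles lay over 10 kb from any annotated gene. The 5 with most sites had 34 to 44, with 21 of 39 in an island in the tile nearest Phb, 32 of 37 in that nearest Socs3 and all or all but 1 in the others. The tile with nearest protein-coding gene Lhx1, at chr11:84642001-84643000, read 2.81%, 3.83%, 28.7% and 2.99%. The tile nearest Dlx4, at chr11:95202001-95203000, read 6.68%, 2.67%, 46.2% and 4.54%, and that nearest Phb, at chr11:95645001-95646000, read 8.03%, 2.97%, 37.7% and 4.15%. The tiles nearest Socs3 and Barx1 read 57.3% and 32.5% in R1 neurons, beside 8.44% and 6.02% in Tet/Tet neurons. No link between these tiles and the genes nearest to them was measured.

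Along the genome, the tiles were found on every chromosome with sites listed in all 4 libraries. No tile was measured on chromosomes 8 and 9, on chromosome 7 beyond position 55762981 or on chromosome 10 before position 128096803. The values used here list no site of Tet/Tet neurons in those stretches. Chromosome 11 held 473, which were 6.26% of its measured tiles, chromosome 2 held 428 (5.81%), chromosome 4 held 384 (5.31%) and the X chromosome 115 (4.29%), beside 5.46% over all measured tiles. The measured part of chromosome 7 had the highest share, with 242 of 3012 (8.03%). The libraries listed between 2310510 sites (R1 ESCs) and 5295489 sites (R1 neurons), and mitochondrial sites had means of 3.19% for R1 ESCs, 7.37% for Tet/Tet ESCs, 15.9% for R1 neurons and 6.27% for Tet/Tet neurons over 69 to 111 sites. R1 neurons, the library that set the range of 25% to 75%, thus had the highest mitochondrial mean. The part of the mitochondrial reading in the tile levels was not tested.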

How the data were processed

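RRBS libraries of ESCs and of neurons of the R1 and Tet/Tet lines were used, 1 of each kind. The authors trimmed reads with Trim Galore 0.6.4, checked them with FastQC 0.11.8, mapped them to mm10 with Bismark 0.19.0 and called CpGs with MethylDackel 0.3.0. The deposited values are, for each CpG, the percent of its reads that kept a cytosine, without normalization between libraries. Read totals are not given, so no read minimum could be set, every site weighed equally, and shares and medians describe tiles and not cultures.

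Sites on chromosomes 1 to 19, X and Y that all 4 libraries listed were averaged over 1 kb tiles with Python 3.11.15, numpy 2.4.6, pandas 2.3.3 and numba 0.67.0. Plots used matplotlib 3.10.9. The GRCm38 sequence gave the CpGs, the MspI fragments and the CpG islands, which were segments scored 17 per CpG and -1 per other base. Genes were those of GENCODE M21. The classification code was tested on simulated data.

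The tiles, the gene lists and the rules were chosen with earlier results of these data known. Named were, among promoter tiles of at least 15 sites, the 8 with the largest share of sites from 25% to 75%, the 8 with the largest difference between the lower and upper 500 bp (at least 5 sites in each), and the 5 highest in each Tet/Tet library. Also named were the 5 genes with most tiles, up to 3 genes per list by number of sites, the 5 tiles over 10 kb from genes with most sites, and the tiles at the bounds. Of these, 1 gene and 1 sequence are not reported here. The sequences come from the leading tiles off chromosome 18 with a window outside annotated untranslated regions. No test between conditions was made. The alternatives were the number of sites, a shift of the tiles, narrower bounds, the sites used, the median in place of the mean, and other island and start site definitions.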

Additional observations from a re-analysis of the deposited data

Results flagged for a closer look

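At 4 of 70 named tiles, Tet/Tet cells went the opposite way to R1 cells by at least 10 percentage points, with 1 library per condition and the difference not tested. Tet/Tet neurons minus Tet/Tet ESCs was -12.4 points at Rpl21, -11.7 at Clcn4, -13.8 at Snap25 and -21.7 at Pax5, where the R1 libraries rose as the rule requires. These means rested on part of the sites: the median over sites was -7.20 points at Rpl21, 0 at Clcn4, -6.44 at Snap25 and 0 at Pax5, and a fall of at least 10 points was read at 10 of 21, 3 of 19, 6 of 16 and 5 of 12 sites. Of all their sites, 1 at Rpl21, 2 at Clcn4 and 2 at Pax5 were listed at 100% in Tet/Tet ESCs. The Snap25 tile was also named for its high level in Tet/Tet ESCs, which favours a fall. The Pax5 tile, at the start of a B cell and midbrain transcription factor gene, read 3.33% for R1 ESCs, 24.4% for Tet/Tet ESCs, 54.4% for R1 neurons and 2.78% for Tet/Tet neurons over 12 sites. Over all 4378 tiles, 154 had a fall of at least 10 points in Tet/Tet. Mitochondrial sites, which are outside the tiles, had a mean of 15.9% in R1 neurons, the highest of the 4 libraries.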

How the results depend on the processing

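No paired analysis was possible because each condition had 1 library and no test between conditions was made. A read minimum was not run, since read counts were not used here. As reported, 4378 tiles met the rule, of which 37.7% overlapped an island and 33.5% lay at promoters, with medians of 23.1 points for the SD within a tile, 6.00% in Tet/Tet neurons and 4.65% in Tet/Tet ESCs. In the same order, tiles of at least 10 sites gave 2319, 57.5%, 40.4%, 22.7 points, 5.84% and 4.31%, and R1 ESCs at or below 5% gave 2196, 40.9%, 37.0%, 22.4 points, 5.30% and 3.31%. Only sites in MspI fragments of 40 to 220 bp gave 2593, 49.5%, 35.4%, 18.3 points, 5.66% and 3.69%. Bounds of 40% and 60% in R1 neurons gave 1553 tiles, 35.7% in islands, an SD of 24 points and 6.15% in Tet/Tet neurons, with the other values inside their intervals. The median of the sites in place of the mean gave 4343 tiles, 34.2%, 30.7%, 22.4 points, 4.46% and 2.55%, and 3248 of the 4378 tiles were kept. Stricter islands lowered the island share to 17.9%, and a window of 500 bp around start sites lowered the promoter share to 26.2%. Tiles shifted by 500 bp gave 4484 tiles and moved none of the other 5 values beyond its 95% interval over tiles. Of 25 tiles named for evenness, splitting or their Tet/Tet levels, 14 stayed from 25% to 75% in R1 neurons by the median and 18 of 23 with MspI fragment sites only, both chosen after seeing the data. The median of a split tile falls on 1 of its sides by construction, and every split tile left the range by the median. Dazl (91.2%), Pcdhga8 (76.0%) and Lrrc4 (75.9%), which were not split tiles, left it too. With MspI fragment sites only, all tiles that left the range were split tiles. They were Usf2 (24.8%), Selenon (24.4%), Wdr34 (17.8%), Clcn4 (10.5%) and Csnk1g3 (2.02%). Of the other split tiles, Rpl21 (58.2%) and Lrfn4 (27.2%) stayed in the range, and Jdp2 had too few such sites. These intervals cover variation over tiles only, and the depth of single sites limits every site value.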
